A study of Mus musculus with 2 samples.

Results

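Macrophages and related myeloid cells are represented here by 10 genes: Csf1r, Tyrobp, Fcer1g, Itgax, Itgam, Emr1, Cd68, Mrc1, Cd163 and Lyz2. They were taken by name, as all non-control probes whose gene name in the array files, or whose current symbol, is one of these (Emr1 is now Adgre1). They have 17 probes among the 41174 of the array, and all 10 genes were measured, among 17021 genes in all. A probe counted as measured when the software marked one and the same diet well above background on both arrays, and 16 of the 17 probes met this. Each gene is represented by its measured probe of highest mean intensity.

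The study compared small-intestinal total RNA of C57BL/6 mice, 6 to 8 weeks old, between diets. The FAF sample came from mice on a food antigen-free diet, which supplies amino acids, kept for up to 5 generations, and the Conv sample from mice on a conventional chow. One pair of RNA samples, 1 per diet, was hybridised to 2 two-colour arrays with the dyes exchanged, so the arrays repeat the measurement and not the mice, and no test between diets can be made. Mice kept specific-pathogen-free and mice kept germ-free are both named in the labels, with no word on which gave this RNA. The labels also do not give the number of mice behind a sample or the segment of intestine.

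Macrophages of the gut wall depend on signalling through the receptor CSF1R and are renewed largely from blood monocytes. They take up dying cells, microbes and particles through scavenger and lectin receptors, carry the beta 2 integrins CD11b and CD11c, and digest what they engulf in lysosomes. Many of their activating receptors have no signalling tail of their own and signal through the small adaptors encoded by Tyrobp and Fcer1g. Several of these genes are also used by dendritic cells, neutrophils, mast cells and natural killer cells, so none of them marks a macrophage alone.

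Ratios are given as log2 of FAF over Conv, so that a positive value is higher in FAF. Where a mean of the arrays carries ±, the value gives how far each array lay from that mean. It is an error of dye and hybridisation that holds no spread between mice. The 10 genes had a median ratio of 0.24, or 1.18-fold, with medians of 0.28 on the array with FAF in Cy5 and 0.19 on the array with FAF in Cy3. The median of all measured genes was -0.00, with quartiles of -0.17 and 0.16. Csf1r, Tyrobp, Itgax, Emr1, Mrc1, Fcer1g and Cd68 lay above the upper quartile, Itgam lay between the quartiles, and Lyz2 and Cd163 lay below the lower one. A rule of size stood in for a test: a mean ratio of 2-fold or more, with 1.5-fold or more in the same direction on each array. Of the 10 genes, 0 passed as higher and 0 as lower, where 1.55% of all measured genes passed as higher and 0.887% as lower. With a mean of at least 1.5-fold and both arrays the same way, 1 gene was higher, Csf1r, and 0 were lower, where 4.53% of all genes were higher and 3.61% lower. Both arrays lay above 0 for 7 of the genes and below 0 for 3, where 38.6% of all genes lay above 0 and 39.6% below on both arrays.

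**Figure D1:**
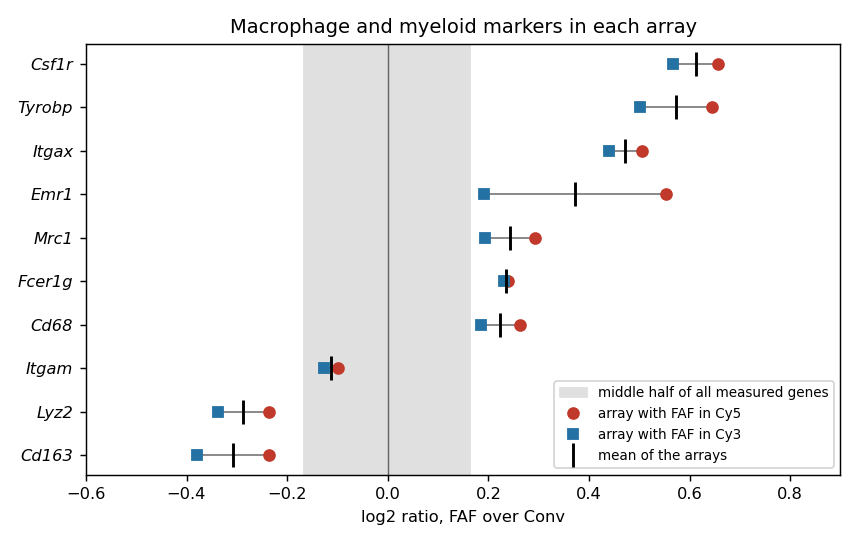
Each row is a gene; the x axis is the log2 ratio of FAF over Conv. Circles are the array with FAF in Cy5, squares the array with FAF in Cy3, vertical bars their mean, and the grey band runs between the quartiles of all measured genes. Means run from 0.61 for Csf1r to -0.31 for Cd163, and the gap between arrays is widest for Emr1.

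After loess the repeat arrays were close for most of these genes. The distance of either array from the mean ran from 0.00 for Fcer1g to 0.18 for Emr1, with a median of 0.05, and the median distance over all measured genes was 0.06. With median centring in place of loess, which leaves the dye trend over intensity in each array, the distances ran from 0.28 to 0.94, and the arrays lay on opposite sides of 0 for 9 of the 10 genes. Over all genes the turned ratios of the arrays correlated at a Pearson r of 0.90, as a description of agreement between hybridisations of the same RNA.

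In tissue RNA a transcript can be lower because fewer cells carry it or because each cell holds less, and these cannot be told apart. The probes are 60 bases long and hybridise to labelled RNA, so the sequence of a probe says which transcripts it can read. Shown here are the Tyrobp probe, because it reads the coding sequence of the signalling motif itself, and a Lyz2 probe in the coding sequence, because the close paralog Lyz1 makes the identity of lysozyme signal matter. In the Tyrobp probe the capitals mark 12 bases that read as a tyrosine codon, 2 further codons and a leucine codon, the first arm of the immunoreceptor tyrosine-based activation motif (ITAM). It spans an intron, at chr7:31200651-31202378 on the plus strand of build mm9. The Lyz2 probe lies at chr10:116719175-116719234 on the minus strand of mm9, near the coding start of the mature enzyme. Positions are those of the array files, and the annotation of mm9 was not used here.
Tyrobp probe: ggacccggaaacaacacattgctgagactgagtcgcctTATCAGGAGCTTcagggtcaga
Lyz2 coding probe: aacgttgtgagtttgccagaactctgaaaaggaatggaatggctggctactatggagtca

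Csf1r, the receptor tyrosine kinase for the growth factor CSF1 that keeps macrophages alive, had the highest ratio of the 10 genes. Its brightest probe gave log2 intensities of 10.73 and 10.64 in FAF on the arrays with FAF in Cy5 and in Cy3, against 10.07 and 10.07 in Conv. Both FAF values lay above both Conv values, and the ratio was 0.61 ± 0.04, or 1.53-fold. Of all measured genes, 4.14% had a higher ratio. A second probe gave 8.47 and 8.48 in FAF against 8.01 and 7.94 in Conv, a ratio of 0.50 ± 0.04. The remaining probe, near the 5′ end of the transcript, read 6.75 and 6.54 in FAF and 6.61 and 6.42 in Conv, with a ratio of 0.13 ± 0.01. That probe lay close to the lowest intensity that was well above background, 6.12 to 6.17 by diet and array. It gave 0.24 with a smaller offset of 10, 0.17 with the software's log ratio and 0.07 without background correction, each below the ratio of the brightest probe. The mean of all probes of Csf1r was 0.41.

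The ratios of both ligands of CSF1R were smaller than that of the brightest Csf1r probe. Csf1 read 8.65 and 8.67 in FAF, against 8.47 and 8.52 in Conv, a ratio of 0.17 ± 0.01. Il34, the alternative ligand, read 10.21 and 10.28 in FAF against 9.94 and 9.88 in Conv, a ratio of 0.34 ± 0.06. Neither gene reached 1.5-fold. Growth factors of myeloid cells and their receptors had 10 measured genes, of which 0 passed in either direction. Without Csf1r, 7 of the other 9 lay above 0 on both arrays and 0 below, with a median of 0.17. The largest was Csf2ra, the binding subunit of the GM-CSF receptor, at 0.44 ± 0.22, whose arrays gave 0.66 and 0.23. The granulocyte factor Csf3 was on the array and not measured.

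Tyrobp encodes DAP12, the adaptor that couples TREM and lectin-like receptors to the kinase SYK. The probe shown above read 11.32 and 11.46 in FAF, against 10.67 and 10.96 in Conv. Every FAF value was the higher one, and the ratio was 0.57 ± 0.07, or 1.49-fold, just short of the 1.5-fold limit. Of all measured genes, 4.75% had a higher ratio. Fcer1g, the common gamma chain that carries the ITAM for Fc receptors, read 10.18 and 10.17 in FAF against 9.94 and 9.93 in Conv, a ratio of 0.24 ± 0.00. Its other probe gave a like mean of 0.28 with a wider distance of ±0.17.

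Among receptors that use these adaptors, Fcgr1, Fcgr3 and Fcgr4 lay above 0 on both arrays, and Trem2 did not. Fcgr1, the high-affinity IgG receptor that pairs with the gamma chain, read 9.56 and 9.40 in FAF against 9.01 and 8.77 in Conv, a ratio of 0.59 ± 0.04, with 0.41 on its other probe. Fcgr3, a low-affinity activating IgG receptor, had 0.42 ± 0.03, with 0.28 on its other probe. Fcgr4, a further activating IgG receptor of mice, had 0.11 ± 0.05. Trem2, a lipid receptor that signals through DAP12, had -0.09 ± 0.10, and its arrays lay on either side of 0. Over the 12 measured genes listed as ITAM adaptors, their receptors and Syk, 0 passed in either direction. Both arrays lay above 0 for 9 and below 0 for 1, the kinase Syk at -0.04 ± 0.03, and the median was 0.26. Without Tyrobp and Fcer1g it was 0.23 over 10 genes. The list also counts genes without an ITAM, the inhibitory IgG receptor Fcgr2b at -0.05 ± 0.07 and the adaptor Hcst at 0.17 ± 0.02.

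**Figure D2:**
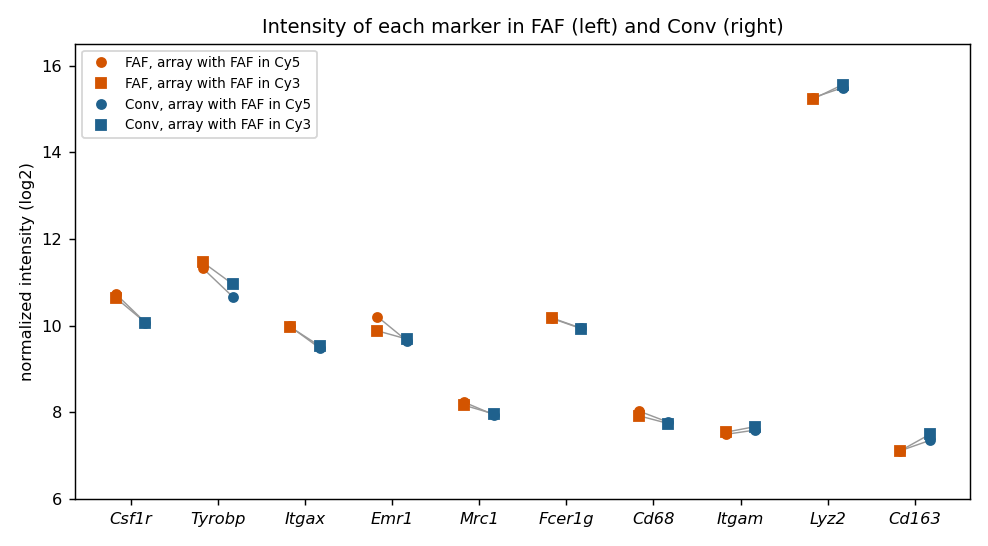
The y axis is the normalised log2 intensity of the probe that stands for each gene; for each gene FAF is on the left (orange) and Conv on the right (blue), with circles for the array with FAF in Cy5 and squares for the other. Lines join values of 1 array. All lines run down from FAF to Conv for 7 genes and up for Itgam, Lyz2 and Cd163. Heights of different genes come from different probes and are not comparable.

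The integrins differed from each other in direction. Itgax encodes CD11c, found on dendritic cells and on many gut macrophages. It read 9.98 and 9.97 in FAF against 9.48 and 9.53 in Conv, with no overlap, a ratio of 0.47 ± 0.03, or 1.39-fold. Its other probe, for which the array annotation lists a cDNA clone and no RefSeq transcript, read 6.85 and 6.59 in FAF and 6.83 and 6.62 in Conv. Its ratio was -0.01 ± 0.02 with the arrays on either side of 0, so the probes of Itgax differ, and their mean was 0.23. The dimmer Itgax probe lay close to the lowest intensity that was well above background, 6.12 to 6.17 by diet and array. It gave 0.01 without background correction and -0.02 with the software's log ratio. Itgam encodes CD11b, shared by monocytes, macrophages and neutrophils. It read 7.49 and 7.54 in FAF against 7.59 and 7.67 in Conv, a ratio of -0.11 ± 0.01. The lowest Conv value exceeded the highest FAF value by a small margin, and the other Itgam probe gave -0.08 ± 0.01. That second Itgam probe was also near the lowest intensity, at 6.66 and 6.59 in FAF and 6.73 and 6.68 in Conv. It gave -0.23 without background correction and -0.52 with the software's log ratio.

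Itgb2, the beta chain that both integrins need to reach the cell surface, read 8.74 and 8.72 in FAF and 8.69 and 8.75 in Conv. Its groups overlapped, at a ratio of 0.01 ± 0.04. Icam2, a ligand of these integrins on endothelium, had -0.22 ± 0.10. Of the 6 measured beta 2 integrin genes and ligands, Itgax was the only one above 0 on both arrays, 4 lay below, 0 passed in either direction, and the median was -0.13.

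Emr1 encodes the adhesion receptor long used as the classical marker of mouse macrophages. It read 10.21 and 9.88 in FAF, against 9.65 and 9.69 in Conv. Both FAF values were higher, but the arrays gave ratios of 0.55 and 0.19, so its mean of 0.37 ± 0.18 is the least precise of the 10. Its other probe was well above background on 0 arrays in either diet and gives no ratio. Among its relatives, Adgre4 had 0.51 ± 0.05 and Adgre5, which most leukocytes carry, -0.05 ± 0.02. Of the 3 genes in this family list 0 passed in either direction, 2 lay above 0 and 1 below on both arrays, with a median of 0.37. That median is the ratio of Emr1 itself, and without Emr1 it was 0.23 over 2 genes.

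The scavenger and lectin receptors among the 10 also split. Cd68, a glycoprotein of late endosomes and lysosomes, read 8.03 and 7.92 in FAF against 7.77 and 7.74 in Conv, a ratio of 0.22 ± 0.04. Mrc1, the mannose receptor, read 8.23 and 8.16 in FAF against 7.94 and 7.96 in Conv, a ratio of 0.24 ± 0.05. Both genes had their FAF values above their Conv values, by 1.17-fold and 1.18-fold on average. Cd163, the receptor for haemoglobin bound to haptoglobin, read 7.11 and 7.11 in FAF against 7.35 and 7.49 in Conv. It had the lowest ratio of the 10 genes, at -0.31 ± 0.07, so that Conv was 1.24-fold higher. The log ratio of the scanner software gave -0.64 for Cd163, the largest shift of any of the 10 genes between settings.

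Other receptors of this kind included Cd209b, the homologue of DC-SIGN on some mouse macrophages, which rose past the rule. It read 9.07 and 8.97 in FAF against 8.04 and 7.67 in Conv, a ratio of 1.17 ± 0.13, and its other probe gave 0.50. The scavenger receptor Msr1 had 0.44 ± 0.01, with 0.29 and 0.44 on its other probes. Over 13 measured scavenger and lectin receptors, 1 passed as higher and 0 as lower, 10 lay above 0 on both arrays and 1 below, and the median was 0.30. Cd163 was the one below. Cd209a, Cd209d, Cd5l and Folr2 were not measured.

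**Figure D3:**
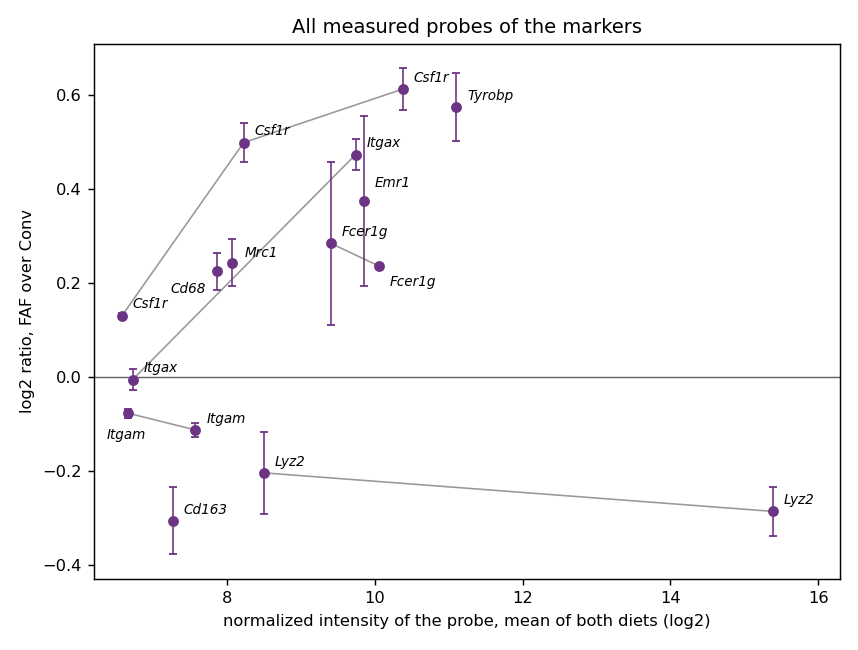
Each point is 1 of the 16 measured probes; the x axis is the mean normalised log2 intensity of the probe over both diets, the y axis the log2 ratio of FAF over Conv, and bars reach to either array. Lines join probes of the same gene. Probes of Csf1r run from 0.13 to 0.61 and those of Itgax from -0.01 to 0.47, while both Itgam and both Lyz2 probes lie below 0.

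Lyz2 encodes lysozyme M, the bacteriolytic enzyme of macrophages and neutrophils. Its bright probe read 15.26 and 15.23 in FAF against 15.49 and 15.56 in Conv, a ratio of -0.29 ± 0.05. This probe stands for the gene, and for it the array annotation lists no RefSeq transcript. An Ensembl transcript is listed, the same one as for the coding probe. The coding probe shown above read 8.34 and 8.46 in FAF and 8.46 and 8.75 in Conv, a ratio of -0.20 ± 0.09. On the bright probe both FAF values were the lower ones, by 1.22-fold on average, while on the coding probe the higher FAF value equalled the lower Conv value at this rounding. Lyz1, the lysozyme of Paneth cells, lies next to Lyz2 and is nearly identical to it. Its probe read 16.44 and 16.21 in FAF against 16.71 and 16.84 in Conv, a ratio of -0.45 ± 0.18, and the array annotation lists transcripts of both genes for it. Paneth cell genes were lower on the same samples: of 7 measured, 3 passed as lower and 0 as higher, all 7 lay below 0 on both arrays, and the median was -0.90. What Paneth cell lysozyme contributed to the Lyz2 signal was not tested.

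Most lysosomal proteins other than the lysozymes lay above 0. Lamp1, a membrane protein of lysosomes, had 0.46 ± 0.07, and Ctss, the protease cathepsin S of antigen-presenting cells, 0.45 ± 0.14. Of the 11 lysozymes and lysosomal proteins, 0 passed in either direction, 7 lay above 0 on both arrays and 3 below, and the median was 0.25. Both lysozymes were among the 3 below.

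Promoters are shown for 2 of the genes that differ in direction, Mrc1 above 0 and Itgam below. The search was for GAGGAA or its reverse complement TTCCTC, the core to which PU.1, a transcription factor of myeloid cells, is known to bind, in the 250 bases before the gene start. RefSeq promoters of assembly GRCm38.p6 matched 7 of the 10 genes, all but Csf1r, Emr1 and Tyrobp. Mrc1 held 3 matches, Itgam 2 and Cd68 1, and Itgax, Lyz2, Cd163 and Fcer1g had 0. That is 3 of 7 promoters, where 23.3% of 32851 promoters of the same length hold a match. A longer form, GAGGAAGT or its reverse complement, was also searched. It was found in 0 of the 7, where 2.44% of the 32851 hold it. A match is only a run of letters. The Mrc1 stretch is chr2:14229164-14229413 and the Itgam stretch chr7:128062390-128062639, both on the plus strand, with matches in capitals. Spi1, which encodes PU.1, was not measured on these arrays.
Mrc1: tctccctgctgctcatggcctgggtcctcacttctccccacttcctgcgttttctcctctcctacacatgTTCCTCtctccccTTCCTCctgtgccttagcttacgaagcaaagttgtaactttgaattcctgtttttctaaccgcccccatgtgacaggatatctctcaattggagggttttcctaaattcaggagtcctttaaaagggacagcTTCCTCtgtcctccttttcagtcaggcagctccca
Itgam: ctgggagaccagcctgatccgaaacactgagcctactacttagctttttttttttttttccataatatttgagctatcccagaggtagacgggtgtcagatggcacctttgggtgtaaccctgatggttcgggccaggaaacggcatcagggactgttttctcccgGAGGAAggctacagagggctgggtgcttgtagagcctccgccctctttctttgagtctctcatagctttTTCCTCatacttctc

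Beyond these members, 105 of 135 other genes on 12 lists drawn up for myeloid cells were measured. The lists hold lysosomal proteins and growth factors too, and the cells behind their signal in tissue RNA were not tested. Of the 105, 3 passed as higher and 1 as lower, where 1.55% and 0.887% of all genes did. Both arrays lay above 0 for 64 and below 0 for 25, and the median was 0.14. Of all genes, 38.6% lay above 0 and 39.6% below on both arrays. The 3 that rose were Cd209b, Mertk and Ccl24. Mertk, the receptor by which macrophages engulf dying cells, read 11.57 and 11.44 in FAF against 9.94 and 9.92 in Conv, a ratio of 1.58 ± 0.05. Ccl24, a chemokine that attracts eosinophils, read 10.65 and 10.52 in FAF against 8.80 and 8.72 in Conv, at 1.83 ± 0.03, with 1.62 on its other probe. The 1 that fell was Cd14, the endotoxin co-receptor, which read 8.21 and 8.30 in FAF against 9.35 and 9.31 in Conv, at -1.08 ± 0.06. These 4 genes lay further from 0 than any of the 10 markers.

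Resident macrophage genes outside the 10 had a median of 0.25 over 19 measured, with 15 above 0 on both arrays and 2 below. Transcription factors of myeloid cells were mixed, at 7 above 0, 3 below and a median of 0.08 over 13 genes. Irf8, needed by monocytes and dendritic cells and used by B cells too, had -0.55 ± 0.12. Blood monocyte and recruited macrophage genes had 5 above and 5 below of 11 and a median of 0.02, with Plac8 at 0.61 ± 0.04. F10 was well above background in FAF only. It was 1.42-fold higher in FAF, a lower bound for the mean of the arrays, which gave 0.48 and 0.53. Dendritic cell genes had a median of 0.03 over 12, with 6 above and 3 below, the lipid amidase Naaa at 0.45 ± 0.01 and Cd83, a marker of maturation, at 0.30 ± 0.00. Genes of alternatively activated macrophages had a median of 0.07 over 11, with 6 above and 5 below, Ccl24 being the only one past the rule. Retnla, a secreted protein induced by interleukin-4, was well above background in Conv only on its brightest probe. That probe was 1.73-fold lower in FAF, a lower bound for the mean of the arrays. The other Retnla probe gave a smaller difference, at a ratio of -0.54. Neutrophil genes were scarce, with 5 of 13 on the array measured and Mpo, Elane, Camp and Ngp among the 8 not measured. Their median was -0.14, with 2 above and 2 below, Retnlg at 0.67 ± 0.04 and Ltf at -0.61 ± 0.02. In the transcription factor, monocyte, dendritic cell and neutrophil lists, 0 genes passed in either direction.

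**Figure D4:**
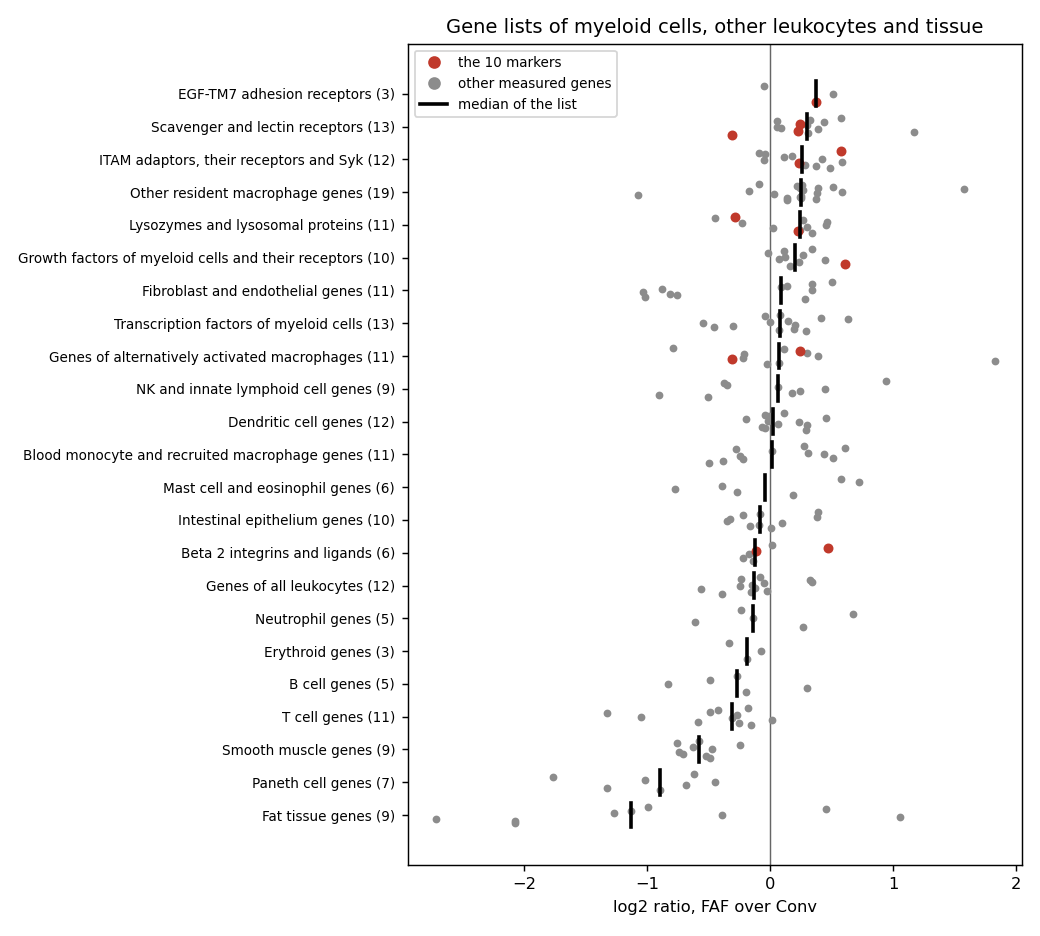
Each row is a gene list with its number of measured genes, ordered by median; the x axis is the log2 ratio of FAF over Conv, red points are the 10 markers, grey points other genes, and black bars the list medians. Medians include the 10 markers and run from 0.37 for the EGF-TM7 receptors to -1.13 for fat tissue genes. The EGF-TM7 median, over 3 genes, is the ratio of Emr1 itself.

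Markers of other leukocytes and of the tissue moved on the same samples, and their part in the ratios of the 10 genes was not tested. Genes of all leukocytes had 2 above 0 and 9 below of 12 and a median of -0.13, with Ptprc at 0.33 ± 0.11 (-0.02 to 0.23 on 3 other probes), Cd52 at -0.57 ± 0.04 and Arhgdib at -0.39 ± 0.09. Of 11 T cell genes 2 passed as lower, the coreceptor chain Cd8b1 at -1.33 ± 0.08 and the receptor Cd5 at -1.05 ± 0.01, with 10 below 0 on both arrays and a median of -0.31. B cell genes had a median of -0.27 over 5, with Cd79b at -0.83 and Fcrla at -0.49, and NK and innate lymphoid cell genes 0.06 over 9, with the granzyme Gzmb at -0.91. Intestinal epithelium genes, which mark the labelled tissue and were all 10 measured, had a median of -0.09, with 2 above 0 on both arrays and 4 below. Those above were Vil1 and Krt20 at 0.39 and 0.38, and the lowest were Krt18 and Krt19 at -0.36 and -0.33. Smooth muscle genes had all 9 below 0 and a median of -0.58, with Synm at -0.76 and Des at -0.74. Of 9 fat tissue genes 5 passed as lower and 1 as higher, with a median of -1.13 and Cfd at -2.72, Adipoq at -2.08, Car3 at -2.07 and Lpl at -1.27, where other probes of Car3 and Lpl gave -0.55 and -0.72. The median of 11 fibroblast and endothelial genes was 0.09, with 2 lower, Dcn at -1.04 and Col1a1 at -1.02, and -0.69 from another Col1a1 probe. In that list 5 genes lay above 0 on both arrays and 5 below. The fibroblast genes Col1a1, Col1a2, Col3a1, Dcn and Lum ran from -1.04 to -0.75, each on its brightest probe. On theirs, the endothelial genes Pecam1, Cdh5, Kdr and Tek ran from 0.28 to 0.50. Pdgfra, a fibroblast gene above 0 on both arrays, had 0.13 ± 0.08, with -0.03 on its other probe. Lyve1, in the same list, had 0.09 ± 0.10, and its arrays lay on either side of 0. Other probes of Col3a1, Cdh5 and Tek gave -0.22, 0.21 and 0.17. The 3 measured erythroid genes lay below 0, with a median of -0.19, Hbb-bt at -0.34 and Alas2 at -0.19. The Paneth genes past the rule were Mptx1 at -1.77 ± 0.02, Defa20 at -1.33 ± 0.48 and Mmp7 at -1.02 ± 0.12. For Defa20 the arrays lay far apart, at -0.85 and -1.80. Except in the T cell, Paneth cell, fat, and fibroblast and endothelial lists, 0 genes of the lists in this paragraph passed in either direction.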

How the data were processed

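Agilent Feature Extraction 11.5.1.1, named in the headers, wrote the deposited scanner files. Per the file headers, they give for each spot and dye the mean intensity on a linear scale, before background correction, with the local background and quality flags. The software's log10 ratio of Cy5 over Cy3, corrected for background and dye per the file headers, is in the same files. The deposited value table repeats this log10 ratio to within 4.99e-08, unturned for the dye swap.

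From the intensities, limma 3.58.1 in R 4.3.3 corrected background by normexp with an offset of 50 and normalised each array by loess, with control spots at weight 0. The labelled dyes set the direction of each log2 ratio as FAF over Conv before averaging over the 2 arrays. Intensities per diet are those after loess and quantile scaling of the average intensities, and they include the offset. Of 43379 non-control spots, 192 carried an outlier flag on an array and were left out there; 0 were saturated. Measured probes had a median log2 intensity of 8.31 to 8.36 by diet and array. RefSeq symbols were found for 27668 probes by accession, 5589 by symbol and 471 by synonym, and 7446 keep the name in the file. A gene above background on both arrays in only one diet has a fold that is a lower bound, with the dim diet set to its own signal or to the lowest one well above background, whichever was higher. Applied to ratios not turned for the dye swap, the rule of size called 0 genes. The steps were tested on simulated data.

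The members and the 23 gene lists were chosen with earlier results of these data known. Named genes are the members with every probe, fixed partners of them, and from each list up to 4 genes past the rule of size, or otherwise the 2 of largest absolute ratio. Some genes that this rule takes are not reported here. Ptprc, Krt18, Krt19, Syk, Fcgr2b, Hcst, Lum, Pdgfra, Lyve1 and the endothelial and further collagen genes were named after their values were seen. As alternatives, 10 settings of the values and 3 other rules of size were run. The number of arrays and RNA samples limits the precision.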

Additional observations from a re-analysis of the deposited data

How the results depend on the processing

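The averaged ratio of all 10 markers kept its sign under all 10 alternatives on the values, although under median centring the arrays lay on opposite sides of 0 for 9 of them, all but Cd163. Several alternatives added no separate check of the sign. The deposited table repeats the software's log ratio. The settings with no filter and with a filter on both diets left each marker at its main value. Each single array repeats the directions already given, 7 above 0 and 3 below. The mean over probes left markers with 1 measured probe unchanged. The median of the 10 markers was 0.286 under median centring, 0.303 with the software's log ratio and with the deposited value table, and 0.192 with only the array that had FAF in Cy3. Cd163 ran from -0.24 to -0.64, Itgax from 0.23 to 0.52, Csf1r from 0.41 to 0.67 and Emr1 from 0.19 to 0.55. None of the 10 passed the 2-fold rule under any of these. Over all genes, median centring gave 82 lower, and the software's log ratio and the deposited table gave 487 higher and 348 lower, against 263 and 151. A mean of 1.5-fold gave 771 and 614 (markers 1 and 0), 4-fold 31 and 18 (markers 0 and 0), and both arrays the same way without a limit 6574 and 6733 (markers 7 and 3). The causes were not tested. Probes near background have ratios shrunk by the offset, and 1 RNA sample per diet leaves the spread between mice unknown. No paired analysis was possible because both arrays hold the same pair of RNA samples and no test was made.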

Other observations

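Eosinophil and mast cell genes, which share Fcer1g with macrophages, lay on opposite sides of 0. The 6 measured genes of this list had a median of -0.04, with 3 above 0 on both arrays and 3 below, and 0 passed the rule of size. The eosinophil granule protein Prg2 had 0.73 ± 0.06, and Siglecf, a lectin of eosinophils, 0.57 ± 0.12. The mast cell proteases Mcpt1 and Mcpt4 had -0.78 ± 0.06 and -0.40 ± 0.03, and Kit, the stem cell factor receptor of mast cells, -0.27 ± 0.07. Ms4a2 and Cpa3 of mast cells and Epx of eosinophils were not measured. Siglecf, Mcpt4 and Kit were named only once their values were known.

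Further genes of gut macrophages and their precursors are given as values, and their choice allows no count. The complement genes C1qa, C1qb and C1qc stood at 0.25 ± 0.05, 0.24 ± 0.18 and 0.25 ± 0.02. The fractalkine receptor Cx3cr1 had 0.38 ± 0.08 and the membrane protein Ms4a7 0.39 ± 0.00. Timd4, a receptor for phosphatidylserine on long-lived macrophages, had 0.58 ± 0.02, and Ccr2, the chemokine receptor of incoming monocytes, -0.38 ± 0.05. Both were dim, with Ccr2 at 6.44 and 6.61 in FAF against 6.87 and 6.94 in Conv, and Timd4 at 6.74 and 6.72 in Conv. The lowest intensity well above background was 6.12 to 6.17 by diet and array. The list of blood monocyte genes that holds Ccr2 was split, with 5 above 0 on both arrays and 5 below. None of the genes in this paragraph reached 2-fold, and all were named only once their values were known.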
